A study of Rattus norvegicus with 9 samples.

Results

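Guanine nucleotide exchange factors were examined in rat whole blood that had been in contact with a hemostatic material. Members were all genes of the deposited table whose symbol begins with Vav, Arhgef, Dock, Rapgef, Rasgrp, Rasgef, Dennd or Cyth followed by a digit. This rule, which uses names alone, gave 54 of 12854 genes in 8 families: 3 Vav, 15 Arhgef, 9 Dock, 5 Rapgef, 4 Rasgrp, 2 Rasgef, 12 Dennd and 4 Cyth genes. RNA was sequenced from 3 DNAgel libraries (whole blood with a hydrogel of salmon sperm DNA crosslinked by PEGDA, 15 min), 3 GS libraries (whole blood with a commercial gelatin sponge, 15 min) and 3 Control libraries (blood without material). No incubation time is stated for Control, so an effect of standing time and an effect of a material cannot be told apart against it. The study used Sprague-Dawley rats of 6 weeks. No source used here says which rats gave the blood of which library, so p-values measure the spread between these libraries only, which may be technical. No other allele, agent or genotype is named for any group.

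Small GTPases are molecular switches that are off when bound to GDP and on when bound to GTP, and an exchange factor turns its GTPase on by releasing the GDP. Each family has its preferred switches. Vav, Arhgef and Dock proteins act on GTPases such as Rac and Cdc42, which shape the actin cytoskeleton; Rapgef, Rasgrp and Rasgef proteins act on Rap and Ras, Dennd proteins on Rab, and cytohesins on Arf. In platelets this step links the surface receptors to integrin activation and to spreading, where Rasgrp2 (CalDAG-GEFI), a calcium-sensing Rap1 activator, and the Vav proteins, which are tyrosine phosphorylated downstream of Syk, are the best known members.

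The libraries held 51838917 to 68076324 estimated counts, but hemoglobin genes took 95.0 to 96.4% of them. The remaining depth was 2393802 to 2772356 counts in DNAgel, 2344910 to 2673551 in GS and 2779554 to 3216776 in Control libraries. Counts above 0 came as 4 more often than as any other number in each library, so a sum of 12 counts over the 3 libraries of a group, which stands for 3 such units, was used as the floor, and a count of 0 allows up to that floor for counting error alone. The labelled tissue was checked with marker lists summed in FPKM (fragment counts scaled to transcript length and library size). Platelet markers, led by Pf4, gave 361 to 466 FPKM in DNAgel, 341 to 444 in GS and 401 to 548 in Control. Neutrophil markers gave 18.2 to 21.0, 13.9 to 16.6 and 13.9 to 20.5 FPKM in DNAgel, GS and Control, and T cell markers 0.892 to 1.34, 0.792 to 1.25 and 1.09 to 1.86. B cell markers gave 0.928 to 2.41, 0.865 to 1.96 and 1.56 to 2.46 FPKM in the same order of groups, and NK cell markers 0.425 to 0.997, 0.579 to 0.843 and 0.487 to 0.703. Reticulocyte markers were present in every library, while Cpa3, the single eosinophil and basophil marker in the table, was at 0 in DNAgel and Control. Monocyte markers gave 8.88 to 13.3 FPKM in DNAgel, 5.45 to 7.36 in GS and 8.35 to 13.5 in Control, and 1 of the 8, Apoe, carried this gap in the sum. Apoe had 4.72 ± 0.570 FPKM in DNAgel, 0.937 ± 0.550 in GS and 4.40 ± 0.149 in Control, and the other 7 summed to overlapping ranges, 4.71 to 7.98, 5.13 to 5.98 and 4.10 to 8.99 FPKM in the same order. Of the 4 tested monocyte markers, 2, Apoe among them, had an unadjusted edgeR p under 0.05 in each of the comparisons with GS. The median log2 fold changes of the 4 were 1.12 for DNAgel against GS and −1.05 for GS against Control. In edgeR with all libraries Apoe alone of them passed, with an adjusted p of 0.0169 for DNAgel against GS and 0.0257 for GS against Control. It did not pass with a replicate block (0.0529 and 0.0799), with that block on the 2 groups alone (0.218 and 0.209) with those groups alone and no block (0.118 and 0.143) or in limma without a filter (0.137 and 0.191), nor in limma with a pseudocount of 0.01 for GS against Control (0.0545). Without DNAgel replicate 1 or 2 it passed in neither comparison, and without GS replicate 2, DNAgel replicate 3 or any 1 Control library it passed for DNAgel against GS alone. Among the other markers, Cd14 was at 0 in GS and Control, and Cd68 in DNAgel and Control. In such bulk blood samples, fewer cells of a type and less RNA per cell cannot be told apart.

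The paper assayed Vav2 and Vav3 by qPCR and western blot, and reported both as higher in platelets with DNAgel. Those measures differ from the whole-blood sequencing counts given here. The qPCR primers are shown as the designed sequences for a pair of members with counts at or under the floor in every group. They are written 5′ to 3′ as the study lists them and were not aligned here.
Vav2 forward: ccatagtcaaccacaccaagca
Vav2 reverse: gagcatcgacatcgggaaggc
Vav3 forward: caacctgagaccccagatgt
Vav3 reverse: tcgggataggcgagataatg
The 4 primers are 20 to 22 bases long, and in the rat RefSeq annotation Vav2 lies on chromosome 3 and Vav3 on chromosome 2.

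Most exchange factors were scarcely detected. Only 8 of 54 exceeded 0.1 FPKM in at least 3 libraries, the filter of the main test, beside 3561 of all 12854 genes. A count above 0 in all 9 libraries was found for 11 of 54 (20.4%), beside 25.6% of all genes. In 27 of 54 a count above 0 was found in only 1 to 3 libraries, a share of 50% against 44.3% of all genes of the table. At or under the floor in each of the 3 groups were 20 of 54 (37.0%), against 41.0% of all genes. For these 20 genes no difference between groups was detectable at this depth. The members are long genes, with a median span of 112532.5 bases in the table's coordinates against 19735 bases for all genes, and they lie on 17 chromosomes.

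**Figure D1:**
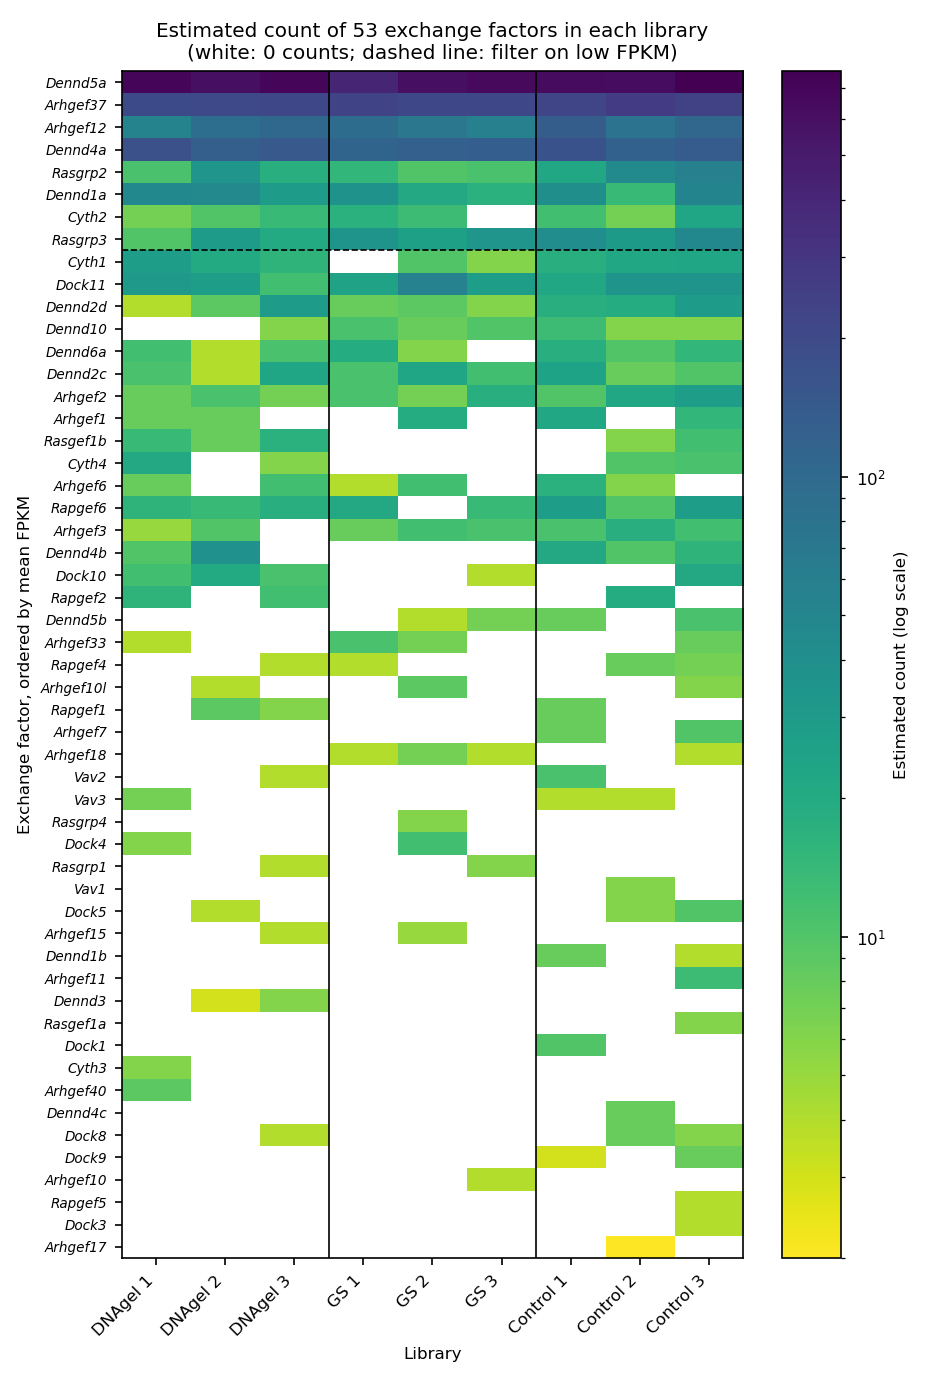
Estimated count (colour, log scale) of 53 of the 54 exchange factors (rows, ordered by mean FPKM) in each library (columns, DNAgel, GS and Control from left to right), with 0 in white. The 8 genes above the dashed line passed the filter, and most of the lower rows are white, with 23 of these genes white across all 3 GS columns.

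The 3 Vav genes were among the least detected. Vav1, the form typical of blood cells, had 0 counts in the 3 DNAgel libraries, 0 in the 3 GS libraries and 0, 6 and 0 in the 3 Control libraries. Vav2 had 0, 0 and 4 counts in DNAgel, 0 in each GS library and 11, 0 and 0 in Control. Vav3 had 7, 0 and 0 counts in DNAgel, 0 in each GS library and 4, 4 and 0 in Control. A single library thus carried Vav1, and no group held any of the 3 genes in all of its libraries. Summed over the family, there were 11 counts in DNAgel, 0 in GS and 25 in Control, and each gene alone was at or under the 12-count floor in every group, so no fold change is given.

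Among the Arhgef genes, which encode Dbl-type exchange factors, Arhgef37 was the most abundant at a mean of 0.728 FPKM, above 91.3% of the genes in the table (chromosome 18, 54949110 to 55000669, minus strand, in the coordinates of the deposited table). It had 0.618, 0.820 and 0.655 FPKM in DNAgel, 0.716, 0.677 and 0.744 in GS and 0.699, 0.847 and 0.779 in Control. The 3 groups overlapped, and the log2 fold change was −0.14 ± 0.17 (SE) for DNAgel against GS, with a 95% interval of −0.52 to 0.23. Arhgef12 (LARG), which couples G protein-coupled receptors to RhoA and through it to platelet shape change, had 0.125, 0.274 and 0.250 FPKM in DNAgel, 0.230, 0.179 and 0.154 in GS and 0.321, 0.192 and 0.266 in Control. Its groups overlapped too. Its log2 fold change was 0.07 (95% interval −0.63 to 0.76) for DNAgel against GS, −0.23 (−0.92 to 0.47) for DNAgel against Control and −0.29 (−0.98 to 0.40) for GS against Control. Arhgef6 (alpha-Pix), an activator of Rac and Cdc42, was below the filter with 8, 0 and 12 counts in DNAgel, 4, 12 and 0 in GS and 17, 6 and 0 in Control, so each group had 1 library at 0. The family as a whole summed to 961 counts in DNAgel, 1019 in GS and 1260 in Control, and Arhgef37 and Arhgef12 supplied most of them.

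Dock proteins are a structurally separate class of Rac and Cdc42 activators, and Dock11, which acts on Cdc42, was the most abundant of the 9. It was detected in every library, with 31, 28 and 12 counts in DNAgel, 25, 54 and 27 in GS and 22, 35 and 35 in Control. The highest library was in GS and the lowest in DNAgel, and the groups overlapped. The other 8 Dock genes had 0 to 21 counts in any library. The family summed to 138 counts in DNAgel, 122 in GS and 191 in Control.

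Of the activators of Rap and Ras, Rasgrp2 (chromosome 1, 203707481 to 203722993, plus strand, table coordinates) had the strongest contrast among the tested members. It had 0.0672, 0.265 and 0.107 FPKM in DNAgel, 0.0880, 0.0605 and 0.0736 in GS and 0.133, 0.274 and 0.365 in Control, from 11 to 34, 10 to 15 and 22 to 57 counts. All 3 GS libraries lay below all 3 Control libraries, and DNAgel spanned both. The log2 fold change of GS against Control was −1.51 ± 0.58 (SE; 95% interval −2.75 to −0.27), a ratio of 0.350, with an unadjusted p of 0.0203 and an adjusted p of 0.431 (edgeR, Benjamini-Hochberg over 3561 genes), so it did not pass the test. The adjusted p ran from 0.309 to 1 over the alternative settings. The unadjusted edgeR p was 0.0577 without GS replicate 2, 0.0607 without Control replicate 2 and 0.0958 without Control replicate 3, and under 0.05 without each other library. For DNAgel against GS the log2 fold change was 0.74 (−0.51 to 1.99), and for DNAgel against Control −0.78 (−1.98 to 0.42).

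Rasgrp3, a diacylglycerol-responsive activator of Ras and Rap known from B cells, had 0.0272, 0.109 and 0.0575 FPKM in DNAgel, 0.106, 0.0789 and 0.115 in GS and 0.123, 0.0874 and 0.150 in Control. DNAgel held the lowest 2 libraries of the 9, but DNAgel 2 lay within the range of both other groups. The log2 fold change was −0.76 (95% interval −1.76 to 0.24) for DNAgel against GS and −0.84 (−1.83 to 0.15) for DNAgel against Control, with adjusted p of 0.707 and 0.994 (edgeR). Without DNAgel replicate 2 the unadjusted edgeR p was 0.0300 against GS and 0.0236 against Control, with adjusted p of 0.514 and 0.762. Rapgef6, an activator of Rap, was found in 8 libraries with 16, 14 and 18 counts in DNAgel, 21, 0 and 14 in GS and 28, 10 and 27 in Control, and the groups overlapped. Rasgef1b, the more abundant of the 2 Rasgef genes and an activator of Rap2, had 14, 8 and 17 counts in DNAgel, 0 in each GS library and 0, 6 and 12 in Control. It was thus present in every DNAgel library and in none of the GS libraries. With GS set to the 12-count floor, it was 3.08-fold higher in DNAgel than in GS, and at least 2.68-fold higher without any 1 DNAgel library. These floor bounds take the DNAgel sum as exact and leave out its error.

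Dennd genes, whose DENN domain activates Rab GTPases of membrane traffic, carried more counts than the other 7 families together, with 2712 in DNAgel, 2239 in GS and 2819 in Control. Dennd5a (chromosome 1, 163928183 to 163994316, minus strand, table coordinates), which acts on Rab39, led all 54 members at a mean of 1.83 FPKM, above 94.7% of genes in the table. It had 1.85, 2.10 and 1.91 FPKM in DNAgel, 1.14, 1.71 and 2.06 in GS and 1.77, 1.75 and 2.17 in Control. GS 1 was the lowest library, while the other 8 lay between 1.71 and 2.17 FPKM. The log2 fold change was 0.16 ± 0.17 (SE; 95% interval −0.20 to 0.52) for DNAgel against GS, 0.12 (−0.25 to 0.48) for DNAgel against Control and −0.04 (−0.41 to 0.32) for GS against Control. These intervals exclude a change of 2-fold in either direction.

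Dennd4a, an activator of Rab10, had 0.257, 0.237 and 0.213 FPKM in DNAgel, 0.169, 0.188 and 0.216 in GS and 0.255, 0.178 and 0.210 in Control. Its log2 fold changes were 0.22 (95% interval −0.28 to 0.72) for DNAgel against GS, 0.21 (−0.29 to 0.71) for DNAgel against Control and −0.01 (−0.51 to 0.49) for GS against Control. On the FPKM scale, DNAgel 3 alone overlapped GS, by a narrow margin. With TMM-scaled counts, both DNAgel 2 and DNAgel 3 lay below GS 3, so the overlap was wider. Dennd1a, which activates Rab35 in endocytosis, had 0.134, 0.174 and 0.0809 FPKM in DNAgel, 0.110, 0.0638 and 0.0566 in GS and 0.114, 0.0411 and 0.157 in Control, and the log2 fold change of DNAgel against GS was 0.63 (−0.45 to 1.70). Below the filter, Dennd2d had 4, 9 and 29 counts in DNAgel, 8, 9 and 6 in GS and 18, 19 and 29 in Control. Dennd10 had 0, 0 and 6 counts in DNAgel, 11, 8 and 10 in GS and 13, 6 and 6 in Control. Its lowest sum, 6 counts, was in DNAgel, against 29 in GS and 25 in Control. Each DNAgel library of Dennd10 was lower than each GS library, with an unadjusted edgeR p of 0.249 without a filter.

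Cytohesins activate Arf GTPases at the plasma membrane and take part in integrin-dependent adhesion. Cyth2 had 0.0511, 0.106 and 0.115 FPKM in DNAgel, 0.144, 0.109 and 0 in GS and 0.0978, 0.0605 and 0.202 in Control, from 0 to 23 counts a library. With GS 3 at 0, its log2 fold change of DNAgel against GS was −0.02 with a 95% interval of −2.61 to 2.58, and nothing can be said of its direction. Cyth1, which binds integrin beta chains, had 28, 20 and 16 counts in DNAgel, 0, 10 and 6 in GS and 18, 22 and 23 in Control. Every GS library was lower than every DNAgel and every Control library. For DNAgel against GS the unadjusted p without a filter was 0.0687 in edgeR, 0.0439 in edgeR on counts divided by 4, 0.0324 in DESeq2 and 0.0369 in limma, with adjusted p of 0.608, 0.747, 0.933 and 0.837. For GS against Control these unadjusted p-values were 0.101, 0.0729, 0.0557 and 0.0507. The family summed to 128 counts in DNAgel, 46 in GS and 126 in Control.

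**Figure D2:**
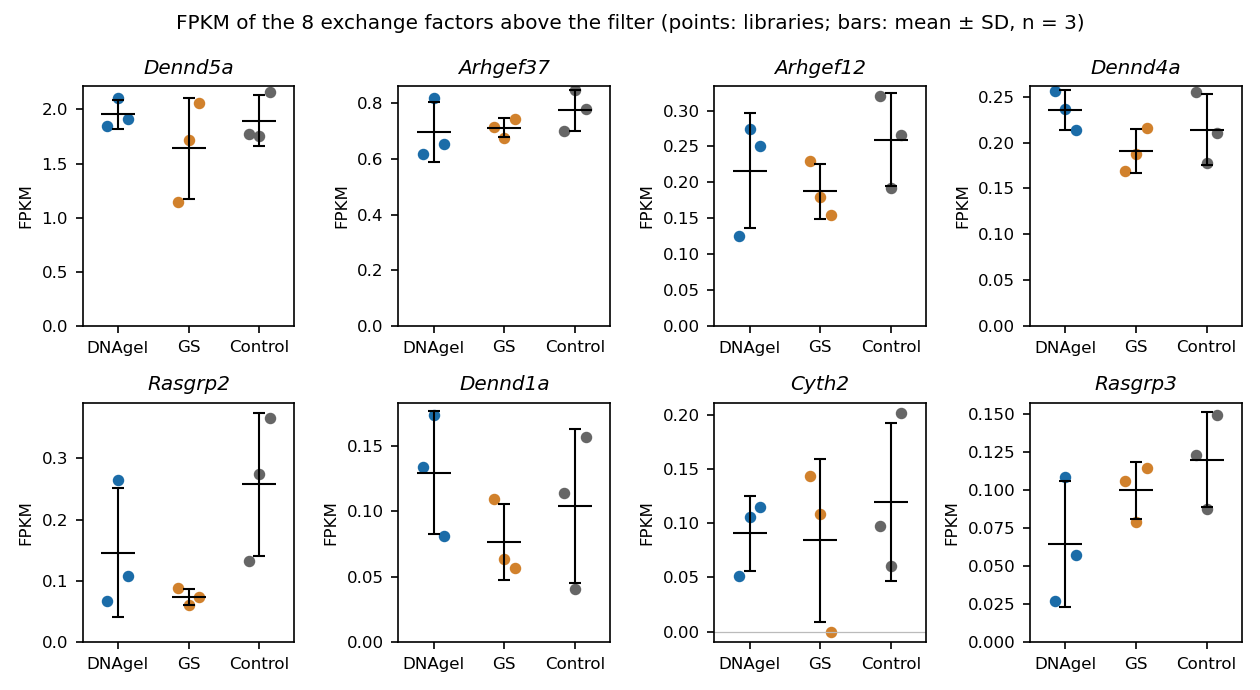
FPKM (vertical axis, linear from 0, a separate scale for each gene) of the 8 exchange factors above the filter, with DNAgel, GS and Control from left to right. Points are libraries and bars are mean ± SD (n = 3); only in Rasgrp2 did 2 groups separate, GS (0.0605 to 0.0880 FPKM) lying below Control (0.133 to 0.365 FPKM).

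The main question was whether the transcripts of these activators differed between blood with DNAgel, blood with GS and untreated blood. For DNAgel against GS, 0 of the 8 tested members passed an adjusted p of 0.05 in edgeR, where 0.814% of 3561 genes passed. At an unadjusted p under 0.05 there were 0 of 8 members, against 9.44% of genes, and DESeq2 and limma also gave 0. None of the 8 tested members had libraries that separated between the groups, against 14.7% of tested genes. The median log2 fold change of the 8 was 0.11, beside 0.03 over all tested genes. For DNAgel against Control, 0 of 8 passed, beside 0% of genes, and 0 of 8 had an unadjusted edgeR p under 0.05, beside 3.79% of genes. DESeq2 and limma gave 0 at both thresholds. None of the 8 had libraries that separated, beside 10.2% of tested genes, and the median was −0.16, beside −0.01. For GS against Control, 0 of 8 passed, beside 0.646% of genes. One of 8, Rasgrp2, was lower in GS at an unadjusted edgeR p under 0.05, beside 8.85% of genes in either direction and 6.29% lower, and the same gene was found by DESeq2 and by limma. It was also the 1 member of 8 whose groups separated, beside 17.2% of genes. The median was −0.16, beside −0.04. With 8 tested members these counts do not set the members apart from all genes.

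**Figure D3:**
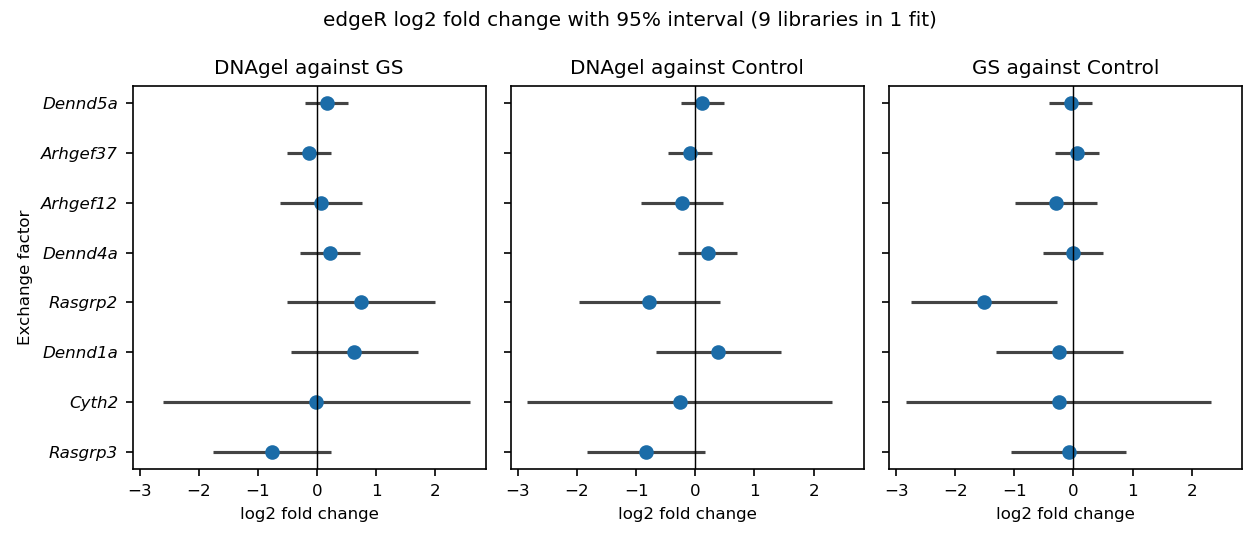
Log2 fold change (horizontal axis) of the 8 tested exchange factors (rows) in 3 panels, the left for DNAgel against GS, the middle for DNAgel against Control and the right for GS against Control. Points are edgeR estimates and lines 95% intervals; each interval spans 0 but that of Rasgrp2 for GS against Control (−2.75 to −0.27).

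With no filter, all 54 members entered the edgeR fit and 0 passed an adjusted p of 0.05 in any comparison. The share of all 12854 genes that passed was 0.389% for DNAgel against GS, 0.00778% for DNAgel against Control and 0.358% where GS was set against Control. At an unadjusted p under 0.05, 4 of 54 were higher in DNAgel than in GS, beside 4.95% of genes in either direction and 3.00% higher. These were Dennd4b, with an adjusted p of 0.156 in edgeR, and Rasgef1b, Rapgef2 and Cyth4, with an adjusted p of 0.608 each. For DNAgel against Control there were 0 of 54, beside 2.54% of genes. For GS against Control 6 of 54 were lower in GS, beside 4.49% of genes in either direction and 3.10% lower, among them Dennd4b, with an adjusted p of 0.197 in edgeR, and Rasgef1b, Rasgrp2, Cyth4 and Rapgef2, with an adjusted p of 0.630 each. The comparisons share the GS libraries, so the recurrence of 4 names is not independent. Other unfiltered fits gave 0 adjusted calls and other counts at an unadjusted p under 0.05. For DNAgel against GS, DESeq2 gave 4 higher, edgeR on counts divided by 4 gave 5 higher, and limma gave 2 higher and 1 lower. For DNAgel against Control limma gave 1 lower, and the other fits 0. For GS against Control DESeq2 gave 4 lower, and edgeR on counts divided by 4 and limma gave 2 lower each, against the 6 of edgeR.

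Dennd4b, Cyth4, Rapgef2 and Arhgef18 were named after their values were seen. Dennd4b, a relative of Dennd4a, had 10, 38 and 0 counts in DNAgel, 0 in each GS library and 21, 10 and 16 in Control. Its floor bounds were 3.79-fold higher in DNAgel than in GS and 3.34-fold lower in GS than in Control. DNAgel 3, like GS, was at 0, and DNAgel 2 carried 38 of the 48 DNAgel counts. Without DNAgel 2 the DNAgel sum of Dennd4b was 10, under the floor, and left no bound against GS, while without 1 Control library its bound for GS against Control was at least 2.68-fold. Cyth4, a cytohesin known from blood cells, had 21, 0 and 6 counts in DNAgel, 0 in each GS library and 0, 10 and 11 in Control. Rapgef2, an activator of Rap, had 16, 0 and 12 counts in DNAgel, 0 in each GS library and 0, 19 and 0 in Control. In each of these 3 genes at least 1 library of DNAgel matched the GS libraries at 0, so the groups touched. The bounds of Cyth4 and Rapgef2 were 2.13-fold and 2.21-fold higher in DNAgel than in GS as a minimum. Without DNAgel 1 both fell to or under the floor, at 6 and 12 counts, and had no bound. In the opposite direction stood Arhgef18, an activator of RhoA, with 0 counts in each DNAgel library, 4, 7 and 4 in GS and 0, 0 and 4 in Control. Its floor bound was 1.32-fold lower in DNAgel than in GS. Without any 1 GS library its GS sum was 8 or 11 counts, under the floor.

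**Figure D4:**
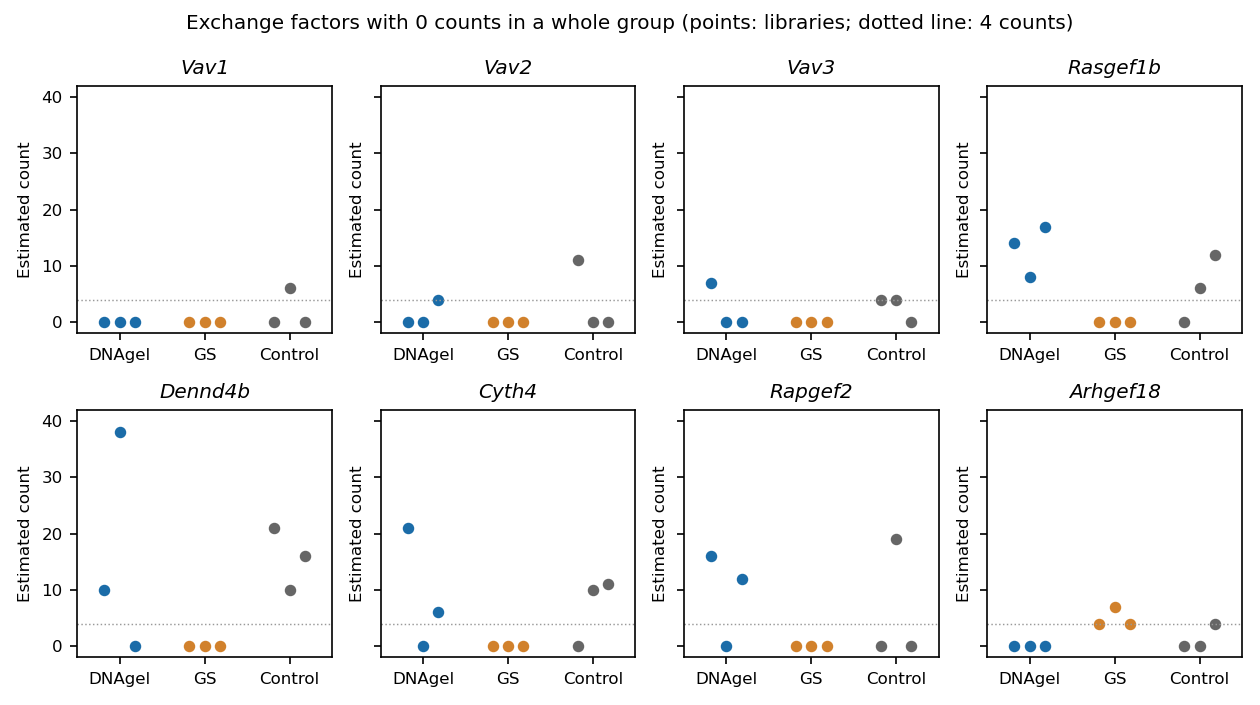
Estimated counts (vertical axis) of 8 exchange factors, picked among those with 0 counts in all libraries of at least 1 group, with DNAgel, GS and Control from left to right. Of all 54 members, 24 were at 0 in every GS, 15 in every DNAgel and 8 in every Control library. Points are libraries and the dotted line marks 4 counts; 7 of the 8 genes are at 0 in every GS library, and Arhgef18 is at 0 in every DNAgel library.

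Counting members at 0 summarises the scarce genes without a test. In all 3 libraries of a group, 15 of 54 members were at 0 in DNAgel (27.8%, beside 26.8% of all genes of the table), 24 in GS (44.4%, beside 25.5%) and 8 in Control (14.8%, beside 18.2%). Among the 46 members below the filter the GS share was 52.2%, beside 34.9% of all genes below it. By this measure members were most often missing in GS, and all genes in DNAgel. By other measures GS was lowest for all genes too. The lowest summed count lay in GS alone for 40.7% of members and 33.6% of all genes, in DNAgel alone for 22.2% and 25.8%, and in Control alone for 5.56% and 12.2%. DNAgel had more counts than GS in 46.3% of members and 46.9% of all genes. In single libraries 28, 25 and 28 members were above 0 in DNAgel, 20, 25 and 20 in GS and 29, 29 and 37 in Control. GS 2 equalled DNAgel 2, so the ranges touched. The share of all genes above 0 was 50.6 to 54.3% in DNAgel, 46.9 to 55.4% in GS and 53.7 to 65.5% in Control, with means of 52.5, 51.2 and 57.8%, and Control 3 was the highest both for members and for all genes.

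Members over the floor in one group and at 0 in another were read the same way. Over 12 counts in DNAgel and 0 in GS were 5 of 54 (9.26%), beside 2.68% of all genes, and 1 of 54 was over 12 in GS and at 0 in DNAgel (1.85%), beside 2.09%. Over 12 counts in Control and 0 in GS were 9 of 54 (16.7%), beside 3.56%, and 3 of 54 were over 12 in Control and at 0 in DNAgel (5.56%), beside 3.38%. No member was over 12 in DNAgel and at 0 in Control, beside 1.24% of all genes, or over 12 in GS and at 0 in Control, beside 1.05%. Apart from Dennd4b, Rasgef1b, Cyth4 and Rapgef2, the genes over the floor in Control and at 0 in GS included Arhgef7, Dock5, Dock8 and Arhgef11, with sums of 13 to 18 counts in Control, likewise named after their values were seen. Scaled by library size, the bounds of Dock8 and Arhgef11 were under 1, at 0.993 and 0.922, so these genes were not shown to be higher in Control. With such genes left out, a step added after seeing the data, 7 of 54 (12.96%) remained for Control over GS, beside 2.89% of all genes, and 2 of 54 (3.70%) for Control over DNAgel, beside 3.03%, while the DNAgel and GS counts above stayed at 5 and 1. Apoe was lower in each GS library than in each DNAgel and Control library, and depth outside hemoglobin was lower in each GS library than in each Control library. The FPKM sum of the neutrophil markers was lower in each GS library than in each DNAgel library, but GS and Control overlapped. Of these markers, Cd177 and Lcn2 went the other way, at 0 in DNAgel and Control but not in GS. The part of these differences in the zero counts was not tested.

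**Figure D5:**
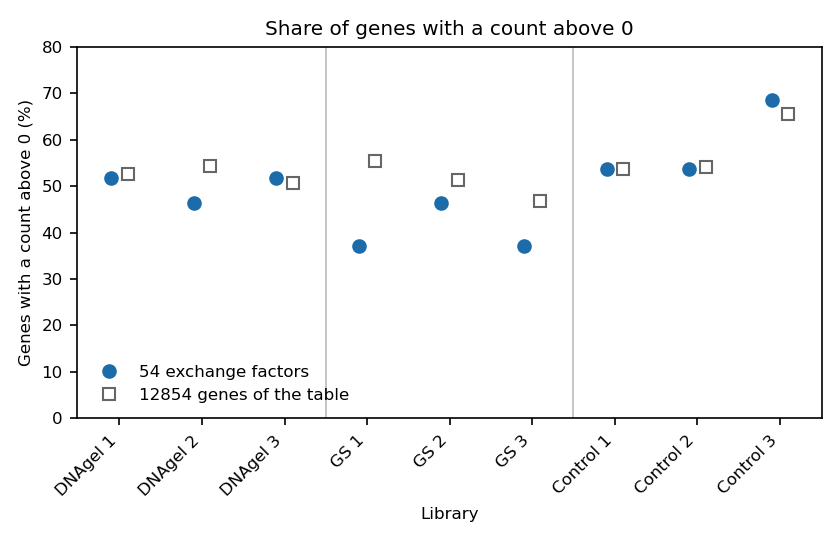
Share of genes with a count above 0 (vertical axis, %) in each library (DNAgel, GS and Control from left to right), for the 54 exchange factors (filled circles) and the 12854 genes of the table (open squares). The circles lie below the squares in 7 of the 9 libraries, by the most in GS 1 (37.0% of exchange factors, 55.4% of all genes), and above them in DNAgel 3 and Control 3.

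Summed over all 54, members made up 527, 558 and 524 counts per 1000000 counts outside hemoglobin in DNAgel, 449, 480 and 532 in GS and 568, 511 and 556 in Control, and the groups overlapped. Dennd5a and Arhgef37 alone gave 56.2 to 74.2% of the summed FPKM of the members in a library, so these sums follow 2 genes.

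The GTPases that the exchange factors act on, and the other genes that set their state, were read from lists grouped by function. No gene of any of the 8 lists passed an adjusted p of 0.05 in edgeR in any comparison. Of their 42 tested entries, 6 had an unadjusted edgeR p under 0.05 for DNAgel against GS (14.3%, beside 9.44% of genes), 1 for DNAgel against Control (2.38%, beside 3.79%) and 7 for GS against Control (16.7%, beside 8.85%). The switches themselves were well detected. Rhoa, which drives contractility, had 6.21 ± 0.421 FPKM in DNAgel, 7.20 ± 0.684 in GS and 7.51 ± 0.394 in Control (SD, n = 3 each), and its log2 fold change of DNAgel against GS was −0.31 (adjusted p = 0.412 in edgeR). Cdc42, which drives filopodia, had 5.30 ± 0.570 FPKM in DNAgel, 5.19 ± 0.361 in GS and 5.09 ± 0.369 in Control. Rap1b, the main Rap of platelets and the target of Rasgrp2, had 7.27 ± 0.861 FPKM in DNAgel, 6.86 ± 0.644 in GS and 7.68 ± 0.439 in Control, and Rap1a had 2.13 ± 0.314, 2.01 ± 0.136 and 2.30 ± 0.202 FPKM in the same groups. None of these genes passed the test in any comparison.

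Arf5, a substrate of Arf exchange factors, was the most abundant of the switches at 47.2 ± 5.59 FPKM in DNAgel, 44.3 ± 9.55 in GS and 41.9 ± 5.43 in Control. Arf1 had 4.19 ± 0.548 FPKM in DNAgel, 3.34 ± 0.372 in GS and 5.13 ± 0.718 in Control, with a log2 fold change of −0.44 for GS against Control (unadjusted p = 0.00588, adjusted p = 0.268 in edgeR). Rab10, the switch of Dennd4a, had 2.45 ± 0.403 FPKM in DNAgel, 2.74 ± 0.279 in GS and 3.00 ± 0.549 in Control, and Rab8a, a related Rab, had 0.269 ± 0.0540, 0.239 ± 0.116 and 0.358 ± 0.0624 FPKM in the same groups. On the FPKM scale, the level of Rap1b was above that of Rasgrp2, and the level of Rab10 above that of Dennd4a, in every group mean.

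By list, 6 of 14 Ras and Rap GTPases in the table were tested, 6 of 10 Arf and 4 of 11 Rab. Their median log2 fold changes of DNAgel against GS were 0.07, 0.10 and −0.06, those of DNAgel against Control 0.17, 0.07 and −0.39, and those of GS against Control 0.08, 0.20 and −0.53. Over all tested genes these medians were 0.03, −0.01 and −0.04. Of the GTPase-activating proteins, which turn the switches off, 5 of 43 were tested, with medians of 0.03, −0.56 and 0.05 in the same comparisons. The 2 most abundant of them, Chn1 and Arhgap15, had mean levels of 0.18 and 0.13 FPKM. Of 48 other exchange factors outside the 8 families, 4 were tested, with medians of 0.32, −0.10 and −0.34, and the most abundant were Rab3il1, which acts on Rab, at 0.97 FPKM and Itsn1, a Cdc42 activator, at 0.38 FPKM.

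The GDP dissociation inhibitors, which hold the switches off in the cytosol, had the medians furthest from 0 of the 8 lists in both comparisons with GS, with 4 of 5 tested and medians of 0.91 for DNAgel against GS, 0.11 for DNAgel against Control and −0.82 for GS against Control. Gdi2, which binds Rab proteins, had 1.04 ± 0.584 FPKM in DNAgel, 0.461 ± 0.180 in GS and 1.03 ± 0.365 in Control, with a log2 fold change of 1.04 for DNAgel against GS (unadjusted p = 0.0101, adjusted p = 0.305 in edgeR) and −0.97 for GS against Control (unadjusted p = 0.0150, adjusted p = 0.382). Arhgdib, the form typical of blood cells, had 1.08 ± 0.760 FPKM in DNAgel, 0.869 ± 0.122 in GS and 0.956 ± 0.514 in Control, within its spread. Of the signalling partners of Vav and Dock proteins, 8 of 34 were tested, with medians of 0.53, −0.13 and −0.77. Grb2, the adaptor that binds Vav, had 0.267 ± 0.0857 FPKM in DNAgel, 0.177 ± 0.0186 in GS and 0.357 ± 0.133 in Control (log2 fold change of GS against Control −0.83, adjusted p = 0.523 in edgeR). Lat, the scaffold that recruits it in platelets and T cells, had 0.120 ± 0.0784 FPKM in DNAgel, 0.120 ± 0.118 in GS and 0.193 ± 0.197 in Control. None of these differences passed the test.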

How the data were processed

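The authors sequenced stranded poly(A) libraries with molecular identifiers from rat whole blood. Tools listed by the submitters for processing were HISAT2 2.0.4, StringTie 1.3.4d, cutadapt 1.9, edgeR, DESeq2 and UMI-tools, in no stated order. Their notes also list mm9, a mouse build, although the deposited table holds rat identifiers, so its coordinates were given no build. Per gene and library, the authors deposited estimated counts, which were whole numbers, and FPKM values. Members and gene lists were chosen with earlier results of these data known.

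Estimated counts were tested here with edgeR 4.0.16 (R 4.3.3; TMM scaling, robust quasi-likelihood F test, all 9 libraries in 1 fit) over the 3561 genes above 0.1 FPKM in at least 3 libraries, with Benjamini-Hochberg adjustment at 0.05. Members below this filter were tested in a fit without it. Alternatives were DESeq2 1.42.0, limma 3.58.1 on log2(FPKM + pseudocount 0.1, 0.01 or 1), other scalings and filters, a replicate block, and each library left out. The edgeR script was tested on simulated data. Folds against a group at 0 used 12 counts over the group, scaled by library size, and took the sum of the other group as exact. Named were Vav1, Vav2, Vav3, Dennd4a, Cyth2 and Arhgef6, the 12 members with the highest mean FPKM, the first of each family, and the 5 with the smallest p per comparison. Per list, the 2 genes with the highest mean FPKM were named. One exchange factor and 1 pathway list are not reported here by name.

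Libraries carry the numbers 1 to 3 in each group. Same-numbered GS and Control libraries deviated together over the 940 genes with a mean of at least 1 FPKM (r = 0.524, 0.368 and 0.303). They did not over all 3561 tested genes (r = 0.103, 0.0457 and −0.00282). DNAgel libraries did not deviate together with same-numbered libraries of either group. Over the 940 genes, DNAgel 3 and Control 3 deviated in opposite directions (r = −0.441). Over the 940 genes, DNAgel 1, 2 and 3 instead deviated with GS 3, 1 and 2 (r = 0.355, 0.459 and 0.525) and with Control 3, 1 and 2 (r = 0.543, 0.303 and 0.614). No source used here gives a pairing, so none was assumed. The replicate block joins libraries of equal number and does not match this order for DNAgel. All replicate pairs differed beyond sampling noise.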

Additional observations from a re-analysis of the deposited data

How the results depend on the processing

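No tested exchange factor was called in any of the 3 comparisons under the 26 alternatives. Of these, 3 (no filter together with DESeq2, limma or counts divided by 4) were chosen after seeing the data. Alternatives with a filter tested at most 8 members, with 6 at a mean of at least 0.1 FPKM and 1 at 1 FPKM. Members below the filter of the main test entered only the fits without a filter. Of 597 alternative fold changes of the tested members, 553 kept their direction and 44 turned in 11 of 24 fold changes, each of which had an interval spanning 0. Cyth2 in DNAgel against GS turned from −0.02 to 0.13, 0.76 and 0.010 (limma with a pseudocount of 0.1, 0.01 and 1), 0.13 (library totals alone), 0.11 (counts divided by 4), 0.064 (replicate block of all libraries), 0.52 (replicate block of the 2 groups alone), 0.088 (no filter, counts divided by 4) and 0.13 (no filter, limma). In GS against Control, Arhgef37 turned to −0.10, −0.12 and −0.051 (limma), −0.13 (library totals) and −0.10 (no filter, limma), Dennd5a to 0.023 (no filter, counts divided by 4), and Dennd4a to 0.014 (DESeq2), 0.019 (no filter), 0.014 (RLE scaling), 0.016 and 0.011 (both replicate blocks), 0.043 (no filter, counts divided by 4) and 0.032 (no filter, DESeq2). The cause was not tested.

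With each library left out in turn, these fold changes ran across 0: DNAgel against GS from −0.014 to 0.35 (Dennd5a), −0.093 to 0.30 (Arhgef12) and −0.59 to 0.66 (Cyth2), DNAgel against Control from −0.40 to 0.028 (Arhgef12) and −0.58 to 0.20 (Cyth2), and GS against Control from −0.24 to 0.13 (Dennd5a), −0.12 to 0.21 (Dennd4a), −0.65 to 0.092 (Dennd1a), −0.92 to 0.32 (Cyth2) and −0.24 to 0.090 (Rasgrp3). The replicate block, which joins libraries of equal number, changed no member's call. With it on the 2 groups alone, the genes called overall numbered 7 for DNAgel against GS and 0 for GS against Control, against 7 and 6 on those groups without it and 29 and 23 with all libraries and no block. DESeq2 called 63, 5 and 52 genes in the 3 comparisons. Scaling by library totals alone moved the median log2 fold change of all genes from 0.03 to 0.15 for DNAgel against GS and from −0.04 to −0.23 for GS against Control. Depth limits most members: 46 of 54 lay below the filter, and a count of 0 in a group allows up to 12 counts.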
